A study of Mus musculus with 14 samples.

Results

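Thy1, Dcn and Mmp2 are 3 genes by which fibroblasts are commonly recognised, and they are followed here through the reprogramming of fibroblasts. They were taken by symbol from the tables of 14 RNA sequencing libraries, so they are 3 of the 26962 genes that any of these tables listed. The rule itself uses no measured value, but the genes were chosen with earlier results of these data known. All 3 passed the filter on low values (1 FPKM or more in 2 or more of the 12 later libraries, those of days 4, 5 and 10). FPKM, the unit of every level below, is the number of sequenced fragments per kilobase of transcript, scaled to the depth of the library, so levels of different genes can be compared per length.

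The cells were mouse embryonic fibroblasts of strain OG2/129SV. All cells had been given c-Myc, Klf4, Oct4 and Sox2, which together drive reprogramming, and grew in LIF-containing medium for embryonic stem cells, so the control cells were reprogramming too, and fibroblasts without the factors were not analysed here. In addition they received either a control vector or Cdk9-DN, a construct named for Cdk9, the kinase of P-TEFb that releases paused RNA polymerase II into elongation. Cells were collected 3, 4, 5 or 10 days after infection, with 1 library per vector at day 3 and 2 per vector at each later day. The labels name neither the promoter of the vectors nor the share of cells that took them up, and leave unsaid whether replicates came from separate cultures. P-values therefore measure the spread between these libraries, which may be technical. The study asks whether pause release limits reprogramming, and the question for these 3 genes is whether Cdk9-DN altered the course of their levels.

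Fibroblasts build and remodel connective tissue, and the 3 genes stand for different sides of that work. Thy1 (CD90) is a surface glycoprotein held by a lipid anchor, known on fibroblasts, T cells and neurons, that binds integrins. Dcn encodes decorin, a small leucine-rich proteoglycan that binds collagen fibrils and TGF-beta. Mmp2 is a secreted gelatinase that cuts denatured and basement membrane collagen, is activated at the surface by Mmp14 and is held back by Timp proteins. In reprogramming to pluripotency, fibroblast genes are known to be shut down while epithelial and then pluripotency genes come on.

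Depth, derived from the deposited bounds around each FPKM, was 8.79 to 13.0 M fragments per library. A gene can be missing from a library's table. Such a library is treated as having no value for it, never as 0. Replicate 2 of the control vector at day 5 stood apart, since its 10 highest genes held 76.1% of its summed FPKM, against 33.4% to 66.1% in the other libraries. Within day 5 this share was 40.4% in control replicate 1 and 64.1% and 66.1% with Cdk9-DN, so the 2 control libraries differed most. Fitted differences of Thy1, Dcn and Mmp2 that involve control cells of day 5 are therefore also given without replicate 2. Cdk9 was listed in 0 libraries, so the construct could not be checked by its own gene.

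Dcn (ENSMUSG00000019929, protein coding, 8 exons in its longest annotated transcript) lies on chromosome 10 at 96942245 to 96980777 of mm9 and was listed in 14 of the 14 libraries. Its level rested on 69.3 to 375 fragments per library, a counting error of 5.17% to 12.01%. Thy1 (ENSMUSG00000032011, protein coding, 4 exons) lies on chromosome 9 at 43851467 to 43856662 and was listed in 10 libraries, with 335 to 1718 fragments and a counting error of 2.41% to 5.46%. Mmp2 (ENSMUSG00000031740, protein coding, 13 exons) lies on chromosome 8 at 95351227 to 95377316 and was also listed in 10, with 1488 to 2753 fragments and a counting error of 1.91% to 2.59%. Between its lowest and its highest library Dcn ranged 5.89-fold, Thy1 5.12-fold and Mmp2 only 1.64-fold.

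The 3 genes took different courses. Thy1 was 5.07-fold lower at day 10 than at day 4 in control cells and 4.22-fold lower with Cdk9-DN. Dcn was 3.83-fold lower at day 10 in control cells, but at that day it stood 3.25-fold higher with Cdk9-DN than with the control vector. Mmp2 was no lower at day 10 than at day 4 with either vector in the deposited FPKM, although with Cdk9-DN this small difference had the opposite sign under both other scalings tried. At day 10 Mmp2 was 1.46-fold higher in control cells than with Cdk9-DN. In bulk samples fewer cells of a type and less RNA per cell cannot be told apart.

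**Figure D1:**
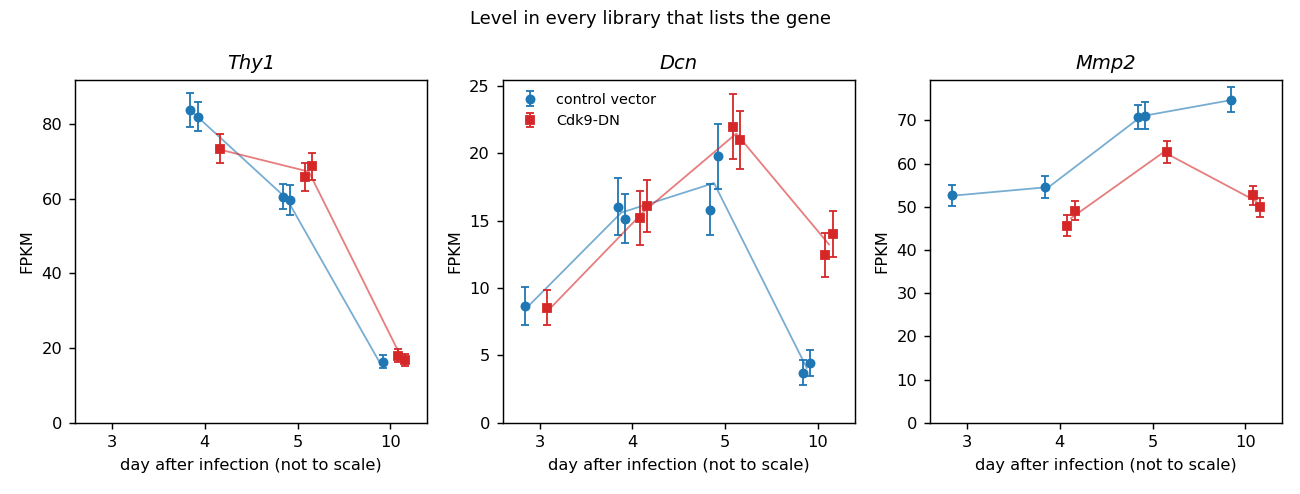
FPKM (y axis) of Thy1, Dcn and Mmp2 in every library that lists the gene, by day after infection (x axis, not to scale). Points are libraries, bars are the deposited lower and upper bounds, and lines join the group means. At day 10 the Dcn points separate by vector (3.73 and 4.42 in control cells, 12.5 and 13.997 with Cdk9-DN), as was so for 67.8% of all genes tested. That share includes genes with 1 library in a group. The Thy1 points of day 10 lie between 16.3 and 18.0.

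Thy1, the surface marker, was not listed at day 3. At day 4 it stood at 83.6 and 81.9 FPKM in the control libraries and at 73.3 in the only Cdk9-DN library that lists it (replicate 2). At day 5 control cells had 60.5 and 59.5 FPKM and Cdk9-DN cells 65.8 and 68.6. At day 10 the values were 16.3 in control replicate 2, the only control library listing it, and 18.0 and 16.8 with Cdk9-DN. Every library of day 10 was thus far below every library of days 4 and 5 with either vector. Such a gap between days 4 and 10 was the rule rather than the exception, since the groups did not overlap for 74.8% of the genes tested in control cells and 72.4% with Cdk9-DN. These shares take in genes with 1 or 2 libraries per group, and Thy1 had 1 library in 1 group of each comparison. In order of the group means, Thy1 ran from control day 4 through Cdk9-DN day 4, Cdk9-DN day 5, control day 5 and Cdk9-DN day 10 to control day 10. Neighbouring groups in that order did not overlap, but the last 2 groups lay only 1.06 FPKM apart, close to the SD of 0.844 between the Cdk9-DN libraries of day 10.

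Changes were tested in limma on log2(FPKM + 1), and a gene was called when its Benjamini-Hochberg adjusted p over all genes of the comparison was under 0.05. Differences below are on that log2 scale, with the standard error, and a 95% interval is not adjusted for the number of genes. In control cells Thy1 fell by 2.27 (SE 0.0595, adjusted p = 6.82e-06) from day 4 to day 10, which is 5.07-fold in the mean FPKM. With Cdk9-DN it fell by 2.02 (SE 0.0595, adjusted p = 1.94e-05), or 4.22-fold. For Thy1, control day 10 and Cdk9-DN day 4 each had 1 library. Falls of this kind were common: 21.8% of the genes tested were called lower in control cells from day 4 to day 10, and 13.5% in Cdk9-DN cells. Counted from the most negative difference, Thy1 ranked 109 of 5814 genes in control cells and 119 of 5816 with Cdk9-DN.

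Most of that fall came after day 5. From day 5 to day 10 Thy1 changed by -1.81 in control cells (adjusted p = 1.53e-05, and -1.83 without the library that stood apart) and by -1.89 with Cdk9-DN (adjusted p = 1.37e-05), where 22.5% and 12.4% of the genes tested were called lower. Between days 4 and 5 it fell by 0.46 in control cells (limma adjusted p = 0.0132, 3.19% of genes called lower). That early call was lost without any single control library of day 4 or 5: the adjusted p was 0.0856 and 0.0695 without replicate 1 and replicate 2 of day 4, and 0.0642 and 0.0830 without replicate 1 and replicate 2 of day 5, at differences of -0.47 to -0.44. With Cdk9-DN the day 5 minus day 4 difference was -0.13 (adjusted p = 0.368, 95% interval -0.28 to 0.03), in a comparison that called 3.28% of genes.

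Cdk9-DN left no called difference in Thy1 at any day. The difference from control cells was -0.17 at day 4 (limma adjusted p = 0.710), 0.16 at day 5 (adjusted p = 0.491, and 0.15 without the control library that stood apart) and 0.08 at day 10 (adjusted p = 0.364, 95% interval -0.07 to 0.24). The interval at day 10 therefore holds differences of up to 0.24 on the log2 scale. For comparison, 0.0336% of genes were called at day 4, 0.169% at day 5 and 28.9% at day 10. The day 10 difference minus the day 4 difference was 0.26 for Thy1 (adjusted p = 0.109, 95% interval 0.04 to 0.47), in a comparison that called 15.7% of the genes tested.

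Dcn, the proteoglycan, had its day 3 values at 8.67 FPKM in control cells (deposited bounds 7.29 to 10.05) and 8.54 with Cdk9-DN (7.24 to 9.83), and these 2 libraries did not differ beyond their bounds. At day 4 control libraries had 16.0 and 15.1 FPKM and Cdk9-DN libraries 15.2 and 16.1, so the groups overlapped. At day 5 the values were 15.8 and 19.8 in control cells, the higher in the library that stood apart, and 21.9 and 21.0 with Cdk9-DN. At day 10 they were 3.73 and 4.42 in control cells and 12.5 and 13.997 with Cdk9-DN. The control libraries of day 10 were the 2 lowest of all 14, and the Cdk9-DN libraries of that day lay between the levels of days 3 and 4. In order of the group means Dcn ran from Cdk9-DN day 5 through control day 5, Cdk9-DN day 4, control day 4, Cdk9-DN day 10, control day 3 and Cdk9-DN day 3 to control day 10. Control day 5 overlapped with Cdk9-DN day 4, and the day 4 groups with each other.

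At day 10 Dcn was higher with Cdk9-DN by 1.49 (SE 0.116, limma adjusted p = 2.16e-04, 95% interval 1.22 to 1.76), or 3.25-fold in the means of 2 against 2 libraries. Of the genes tested, 14.5% were called higher in that comparison, and Dcn ranked 158 of 5740 from the most positive difference. At day 4 the difference was 0.01 (adjusted p = 1, 95% interval -0.27 to 0.28). At day 5 it was 0.27 (adjusted p = 0.606). It was 0.42 without the control library that stood apart and 0.11 without the other control library of day 5. The day 10 difference exceeded the day 4 difference by 1.48 (SE 0.163, limma adjusted p = 0.00179, 95% interval 1.10 to 1.87), where 7.95% of the genes tested were called higher.

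The course of Dcn differed between the vectors. In control cells Dcn fell by 1.71 from day 4 to day 10 (SE 0.116, limma adjusted p = 2.72e-05), or 3.83-fold in the means. The fall lay after day 5. Day 5 minus day 4 was 0.17 (limma adjusted p = 0.468), and 0.02 without the library that stood apart. From day 5 to day 10 Dcn fell by 1.88 (limma adjusted p = 1.79e-05), and by 1.73 without that library. Without the other control library of day 5 these steps were 0.32 and -2.04. With Cdk9-DN the day 10 minus day 4 difference was -0.23 (adjusted p = 0.169, 95% interval -0.50 to 0.04), and -0.41 (adjusted p = 0.0311) after median-of-ratios scaling, which calls it. Cdk9-DN cells too had less Dcn at day 10 than at day 5, a fall of 0.66 (adjusted p = 0.00404). From day 3 to day 4 the level was 1.799-fold higher in control cells and 1.83-fold higher with Cdk9-DN, untested because day 3 had 1 library per vector.

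Mmp2, the gelatinase, stood at 52.6 FPKM in the control library of day 3 and was not listed in the Cdk9-DN library of that day. At day 4 it had 54.6 in control replicate 1, the only control library that lists it, and 45.6 and 49.1 with Cdk9-DN. At day 5 it had 70.8 and 71.1 in control cells and 62.7 in Cdk9-DN replicate 2, the only such library listing it. At day 10 it had 74.8 in control replicate 1, again alone, and 52.6 and 49.9 with Cdk9-DN. The control libraries lay above those with Cdk9-DN at each of days 4, 5 and 10. The groups of the 2 vectors did not overlap, in either direction, for 41.5%, 46.1% and 67.8% of all genes tested on these days. These shares include genes with 2 libraries in each group. Mmp2 had 1 library in 1 of its groups on each day, which makes overlap less likely. No library that lists the gene had less than 45.6 FPKM. In order of the group means Mmp2 ran from control day 10 through control day 5, Cdk9-DN day 5, control day 4, control day 3 and Cdk9-DN day 10 to Cdk9-DN day 4. No neighbours overlapped, but control days 3, 4 and 10 and Cdk9-DN day 5 were single libraries. Single libraries next to each other cannot overlap, so the order says little there. Control day 3 exceeded the mean of Cdk9-DN day 10 by only 1.38 FPKM, less than the SD of 1.92 between the Cdk9-DN libraries of day 10.

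At day 10 Mmp2 was lower with Cdk9-DN by 0.54 on the log2 scale (SE 0.0695, limma adjusted p = 0.00960, 95% interval -0.73 to -0.35), a ratio of 1.46 between the control library and the mean of the Cdk9-DN libraries. Of the genes tested, 14.4% were called lower there. The difference was -0.20 at day 4 (adjusted p = 0.755) and -0.18 at day 5 (adjusted p = 0.615, and -0.17 without the control library that stood apart). The day 10 difference minus that of day 4 was -0.34 (adjusted p = 0.103, 95% interval -0.61 to -0.07), so a change in the effect between these days was not called.

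In control cells Mmp2 was higher at day 10 than at day 4 by 0.45, with 1 library on each day. The spread for this difference came from the other groups. Limma called it higher, as it did 28.2% of the genes tested, and the call was lost after quantile normalization (0.16). Day 5 minus day 4 was 0.37 (adjusted p = 0.0752, 1.83% of genes called higher), and 0.37 (adjusted p = 0.222) without the library that stood apart. Day 10 minus day 5 was 0.08 (adjusted p = 0.436), and 0.08 (adjusted p = 0.572) without that library. The latter step turned to -0.04 after median-of-ratios scaling and -0.13 after quantile normalization. With Cdk9-DN the day 10 minus day 4 difference was 0.11 (adjusted p = 0.210), with the opposite sign under both scalings (-0.08 and -0.01), and day 5 minus day 4 was 0.40 (adjusted p = 0.0822). From day 5 to day 10 Mmp2 fell by 0.29 with Cdk9-DN (adjusted p = 0.0412), a call lost in 11 alternatives, among them leaving out replicate 1 or 2 of Cdk9-DN at day 10 (adjusted p = 0.0842 and 0.138).

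**Figure D2:**
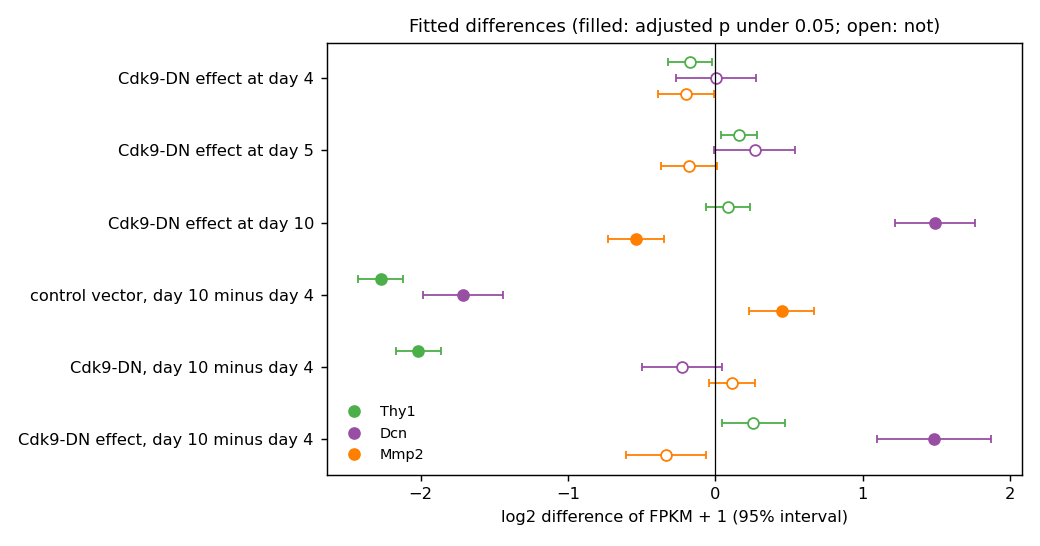
Fitted log2 differences of FPKM + 1 (x axis) with unadjusted 95% intervals for Thy1, Dcn and Mmp2 in 6 comparisons (y axis); filled points have an adjusted p under 0.05. At day 10 the Cdk9-DN effect is 1.49 for Dcn, -0.54 for Mmp2 and 0.08 for Thy1, and the open Mmp2 point of Cdk9-DN, day 10 minus day 4, turns negative under both scalings.

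Ratios within a library do not depend on how that library was scaled. Per length, Dcn stood at 0.192 and 0.185 of Thy1 in the control libraries of day 4 and at 0.219 with Cdk9-DN. At day 5 the ratio was 0.261 and 0.332 in control cells and 0.334 and 0.306 with Cdk9-DN, and the groups overlapped. At day 10 it was 0.271 in the control library that lists both genes and 0.692 and 0.833 with Cdk9-DN. The 2 Cdk9-DN libraries of day 10 thus had the highest Dcn to Thy1 ratios of the 10 libraries with both genes.

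The ratio of Mmp2 to Dcn was highest in control cells of day 10. It was 6.08 in the control library of day 3 and 3.403 at day 4, against 3.003 and 3.053 with Cdk9-DN. Day 5 gave 4.481 and 3.601 in control cells and 2.99 with Cdk9-DN. At day 10 it reached 20.1 in the control library and stayed at 4.23 and 3.57 with Cdk9-DN. Mmp2 over Thy1 was 0.653 in the control library of day 4 and 0.670 with Cdk9-DN, 1.17 and 1.19 against 0.914 at day 5, and 2.92 and 2.97 with Cdk9-DN at day 10, where no control library lists both.

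**Figure D3:**
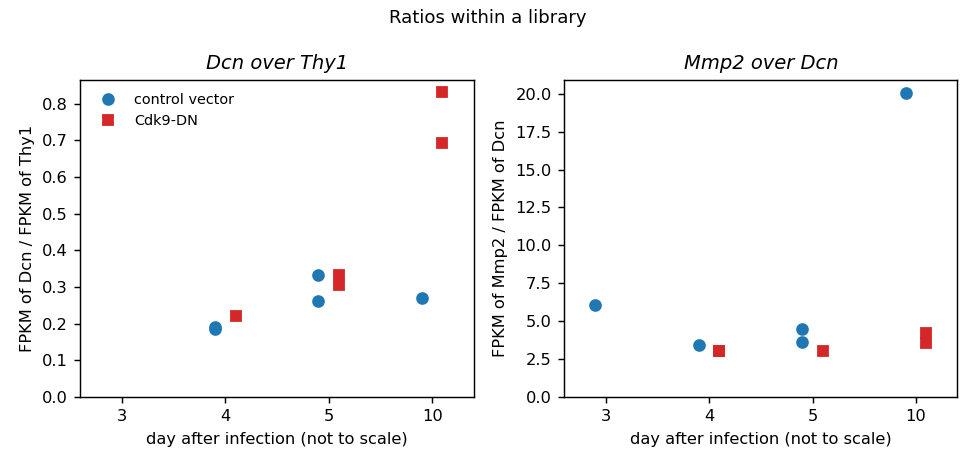
Ratio of the FPKM of Dcn to that of Thy1 (left) and of Mmp2 to that of Dcn (right) in each library that lists both genes (y axes), by day after infection (x axis, not to scale). Points are single libraries; at day 10 Dcn over Thy1 is 0.692 and 0.833 with Cdk9-DN and 0.271 in control cells, and Mmp2 over Dcn is 20.1 in the control library.

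The genes around these 3 were read from 8 lists of matrix, protease and surface genes with 122 further genes. Of these, 22 or 23 were tested in each comparison given next. In control cells, 16 of 23 were called lower at day 10 than at day 4 and 4 higher (21.8% and 28.2% of all genes tested were), with a median of -0.97 against 0.07 over all genes. With Cdk9-DN, 15 of 22 were called lower and 2 higher (13.5% and 24.5% of all genes), with a median of -0.83 against 0.11 over all genes. Between the vectors at day 10, 5 of 22 were called higher with Cdk9-DN and 7 lower (14.5% and 14.4% of all genes), with a median of 0.00 both in the lists and over all genes. The 5 higher came down to 3 without replicate 2 of either vector at day 10. These shares carry no test of the lists as such. The collagens Col1a1, Col1a2 and Col3a1, fibronectin (Fn1) and vimentin (Vim), which define fibroblasts most widely, were on the lists. Of 22 genes for collagens and their processing, only 2 were listed in any library, Col5a3 and Col6a2. Col1a1, Col1a2 and Col3a1 thus had no level in any library, and Fn1 and Vim were not among the genes tested. The counts above therefore leave out these genes.

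Among the small leucine-rich proteoglycans, the family of decorin, 4 of 13 were tested, and all 4 fell in control cells from day 4 to day 10, where 21.8% of all genes were called lower. Besides Dcn these were Aspn (asporin, -1.31), Ogn (osteoglycin, -1.09) and Lum (lumican, -0.88), each with an adjusted p under 0.05 in limma. With Cdk9-DN at day 10, 2 of the 4 were called higher, Dcn and Lum, against 14.5% of all genes. Lum, which binds collagen fibrils like decorin, was listed at 0 and 0.124 FPKM in the control libraries of day 10 and at 0.855 and 0.982 with Cdk9-DN (0.85, adjusted p = 0.0130). The Lum call was lost without replicate 2 of either vector at day 10, and its levels were low throughout. Aspn (0.27, adjusted p = 0.316) and Ogn (0.24, adjusted p = 0.286) were not called.

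Among the fibroblast surface markers, where Thy1 belongs, 8 of 18 were tested. In control cells 6 of them, against 21.8% of all genes, fell from day 4 to day 10: Cd248 (endosialin, -2.55), the adhesion molecule Vcam1 (-2.36), Thy1, the sialomucin Cd34 (-2.07), the growth factor receptor Pdgfra (-1.45) and the collagen receptor Itga11 (-0.97). Nt5e (CD73, an enzyme that makes adenosine) rose by 2.57. At day 10, 3 of the 8 were called higher with Cdk9-DN and Anpep (aminopeptidase N) was lower (-0.89, adjusted p = 0.00613 in limma), where 14.5% of all genes were called higher and 14.4% lower.

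The 3 higher surface markers were Cd34, Cd248 and Vcam1. Cd34 stood at 6.64 FPKM in the 1 control library of day 10 that lists it and at 21.5 and 22.2 with Cdk9-DN (1.58, adjusted p = 1.36e-04). Cd248 had 10.8 and 11.6 in control cells and 23.9 and 24.2 with Cdk9-DN (1.04, adjusted p = 3.73e-04). Vcam1 had 4.64 and 5.26 against 9.27 and 10.2 (0.85, adjusted p = 9.94e-04). None of these groups overlapped, as was so for 67.8% of all genes tested, a share that includes genes with 1 library in a group, as Cd34 had. For all 3 the day 10 difference also exceeded that of day 4, by 1.71 for Cd34, 1.10 for Cd248 and 0.84 for Vcam1 (adjusted p = 5.76e-04, 0.00308 and 0.00693 in limma). All 3 were also called lower at day 10 than at day 4 with Cdk9-DN, as were 13.5% of all genes tested. The differences were -0.36 for Cd34, -1.44 for Cd248 and -1.52 for Vcam1. Pdgfra (0.08, -0.04 after quantile normalization), Nt5e (0.16), Itga11 (-0.16) and Thy1 itself were not called at day 10.

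**Figure D4:**
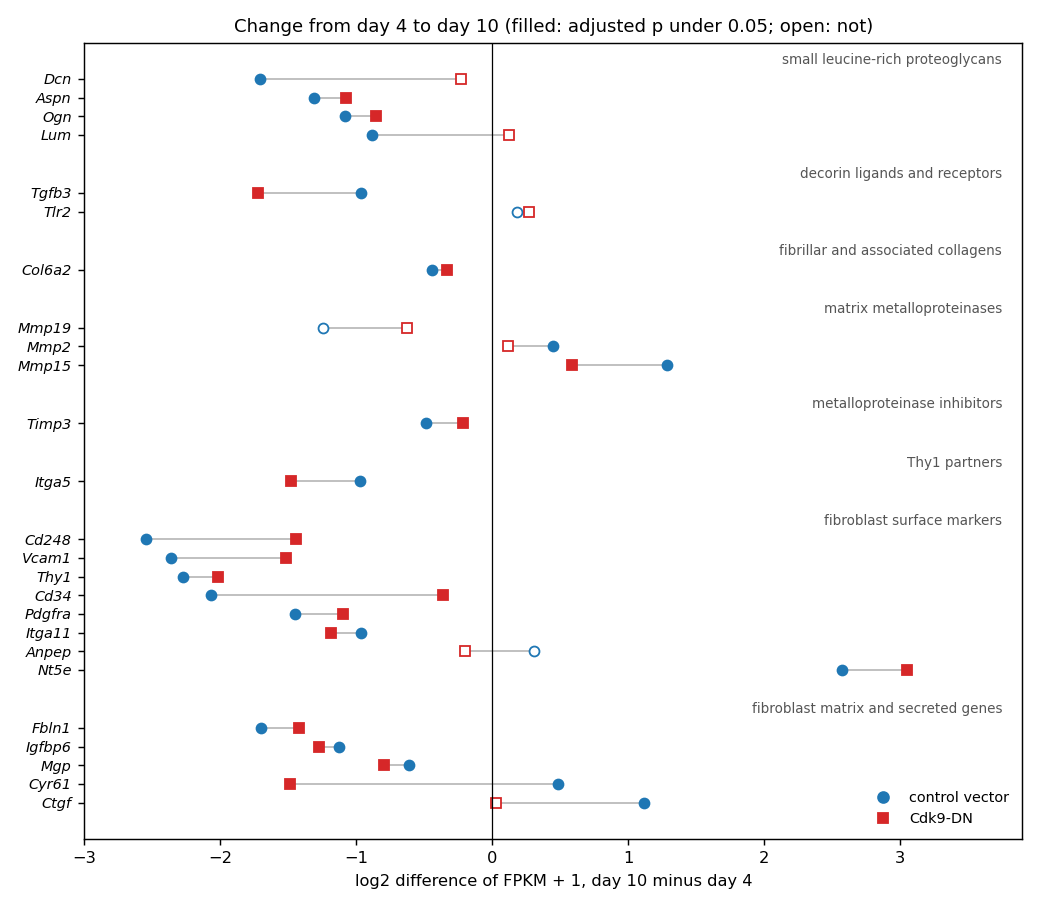
Log2 difference of FPKM + 1 between day 10 and day 4 (x axis) in control cells (circles) and with Cdk9-DN (squares) for the genes of the 8 lists tested in both courses (y axis, grouped by list); filled symbols have an adjusted p under 0.05. The widest gaps between the vectors among genes called lower in control cells include Dcn (-1.71 and -0.23) and Cd34 (-2.07 and -0.36), whereas Thy1 has -2.27 and -2.02; with Cdk9-DN the signs of Mmp2, Ctgf and Lum turn under another scaling.

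Among the matrix metalloproteinases 3 of 15 were tested. Mmp15, a membrane-bound member, was lower with Cdk9-DN at day 10 as Mmp2 was. It had 5.04 and 5.22 FPKM in control cells and 2.40 and 2.48 with Cdk9-DN (-0.83, limma adjusted p = 0.00109). In control cells Mmp15 rose by 1.28 from day 4 to day 10 (adjusted p = 5.61e-05), and its day 10 difference was below that of day 4 by 0.70 (a difference of -0.70, adjusted p = 0.0127), where 7.79% of genes were called lower. Mmp19 was listed at 0 in all 4 libraries of day 10. The stromelysin Mmp3, Mmp10 and the collagenase Mmp13 were under the filter.

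Of the 5 metalloproteinase inhibitors only Timp3 was tested. It had 68.5 FPKM in the 1 control library of day 10 that lists it and 85.2 and 86.7 with Cdk9-DN (0.32, limma adjusted p = 0.0123), and the call was lost without either Cdk9-DN library of day 10. In control cells Timp3 fell by 0.48 from day 4 to day 10. At day 10 the RNA of Mmp2 was lower and that of Timp3 higher in Cdk9-DN cells, each against 1 control library. The balance of protease and inhibitor was not tested.

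Of the binding partners, the integrin subunit Itga5 was the only one of 13 Thy1 partners tested. It fell by 0.97 in control cells from day 4 to day 10 and was lower with Cdk9-DN at day 10 (-0.42, limma adjusted p = 0.00613), a call lost when day 10 was fitted alone. Among 12 decorin ligands and receptors Tgfb3, a TGF-beta, fell by 0.96 in control cells and was lower with Cdk9-DN at day 10 (-0.86, adjusted p = 0.00291), and the receptor Tlr2 was not called (-0.19). Of 22 genes for collagens and their processing only Col6a2 was tested, which fell by 0.45 in control cells and did not pass between vectors (0.04).

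Among the other matrix and secreted genes, 5 of 27 were tested at day 10 and none was called higher with Cdk9-DN. Of all genes tested there, 14.5% were called higher and 14.4% lower. The CCN family members Ctgf (-0.95) and Cyr61 (-1.66) and the matrix Gla protein Mgp (-0.53) were lower, each with an adjusted p under 0.05 in limma, and Igfbp6 (-0.25) and Fbln1 (0.01, and slightly below 0 under both scalings) were not called. In control cells Fbln1 (-1.70), Igfbp7 (-1.40), Igfbp6 (-1.13) and Mgp (-0.61) fell from day 4 to day 10. Ctgf rose by 1.12 and Cyr61 by 0.49, the latter lost after quantile normalization. The genes of this list that were tested therefore did not share the higher day 10 level of Dcn.

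Markers of other cell types were read in the same libraries. Epithelial genes listed in all 14 libraries (Krt18, Cldn3 and Cldn4, 3 of 12 on the list) summed to 2.43 to 8.27 FPKM on days 3 to 5, and at day 10 to 262 to 271 in control cells and 58.5 to 65.2 with Cdk9-DN. Of 12 pluripotency genes, the 6 listed in all libraries summed to 49.7 to 57.9 in control cells of day 10 and 30.8 to 31.1 with Cdk9-DN. Of the 6 pluripotency genes tested at day 10, 4 were called lower with Cdk9-DN, Nanog was not called (-0.79, limma adjusted p = 0.0503), and Nr0b1, a nuclear receptor, was called higher (1.22, adjusted p = 1.65e-04), with 3.91 and 4.29 FPKM in control cells and 10.4 and 11.4 with Cdk9-DN. All 5 epithelial genes tested were called lower with Cdk9-DN. Of all genes tested at day 10, 14.4% were called lower and 14.5% higher. The part of these genes in the Dcn difference was not tested.

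Of 7 smooth muscle and myofibroblast markers 2 were tested, and both were called lower at day 10 than at day 4 with either vector. Of all genes tested, 21.8% were called lower in control cells and 13.5% with Cdk9-DN. Cnn1 (calponin) differed by -2.61 in control cells and by -3.48 with Cdk9-DN, and Myh11 (smooth muscle myosin heavy chain) by -1.48 and -1.64. At day 10 Cnn1 had 3.03 and 3.15 FPKM in control cells and 1.45 and 1.54 with Cdk9-DN (-0.71, limma adjusted p = 0.00418), the opposite direction to Dcn, and Myh11 was not called (0.10, and slightly below 0 after quantile normalization). Of 8 endothelial markers only Cldn5, a claudin, was tested. It was listed at 0 in every library of days 3 and 4 and had 3.598 and 3.772 FPKM in control cells of day 10 and 0.920 and 0.956 with Cdk9-DN (-1.27, adjusted p = 8.19e-05), while Cdh5 (VE-cadherin) stayed under 1 FPKM in every library. The part of these genes in the levels of Thy1, Dcn and Mmp2 was not tested.

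Of the other cells known to carry Thy1, T cells left almost no trace: 3 of 9 markers were listed in all libraries (Cd3d, Cd3e and Cd8a), they summed to 0 to 0.242 FPKM, and Cd3e was at 0 in every library. For neurons 2 of 9 were (Nefl and Nefm), with a sum of 2.48 to 2.64 FPKM in control cells of day 10 and 13.3 to 13.5 with Cdk9-DN, which is Nefl alone since Nefm was at 0 there. The 2 genes went opposite ways with Cdk9-DN at day 10. Nefl was called higher (2.31, limma adjusted p = 4.96e-06) and Nefm lower (-0.72, limma adjusted p = 0.00906), where 14.5% of all genes tested were called higher and 14.4% lower. The summed macrophage markers Lyz2 and Tyrobp (2 of 9) went from 8.91 and 10.3 FPKM at day 3 to 0 to 0.133 at day 10. Cd14, a further macrophage marker, was called higher in control cells (0.56 from day 4 to day 10, limma adjusted p = 0.0352), a call lost in 12 of 18 alternatives. The summed adipocyte markers Fabp4, Plin1 and Pparg (3 of 6) went from 4.51 and 4.90 FPKM at day 3 to 0.601 to 1.41 at day 4 and 0.312 to 0.703 at day 10. Their part in the levels of Thy1, Dcn and Mmp2 was not tested.

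The genes most like each of the 3 were ranked by Pearson's r of log2(FPKM + 1) over the libraries that list it, as a description with no test, since libraries of a group and of a day share their culture conditions. For Thy1 (10 libraries, 449 candidate genes) they were the receptor Fzd2, the surface protein Cd276, Setbp1, the secreted Sfrp2 and the semaphorin Sema3d, all with r of 0.99. Sfrp2 went from 93.6 FPKM in control cells of day 4 to 5.32 at day 10 and from 80.6 to 4.25 with Cdk9-DN.

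For Dcn (14 libraries, 456 candidates) the most alike were Rpusd2 (r = 0.95), Spin4 (0.92), Nov (0.92), Olfr1318 (0.91, below 2 FPKM in every group) and Ercc6l (0.91). Since they were chosen on these libraries, their order between the vectors at day 10 follows from the choice. Nov, a secreted CCN protein, went from 8.38 FPKM at day 4 to 1.23 at day 10 in control cells and from 7.13 to 3.19 with Cdk9-DN. For Mmp2 (10 libraries, 518 candidates) the likeness was weaker: Grrp1 (0.83), Ppp1r3b (0.75), Fam101b (0.74), Plcl2 (0.68) and Ly6k (0.66), and Grrp1 and Ly6k stayed below 2 FPKM in every group. Among the 3 genes themselves r was 0.69 for Thy1 and Dcn (10 libraries), 0.41 for Thy1 and Mmp2 (7) and -0.24 for Dcn and Mmp2 (10).

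**Figure D5:**
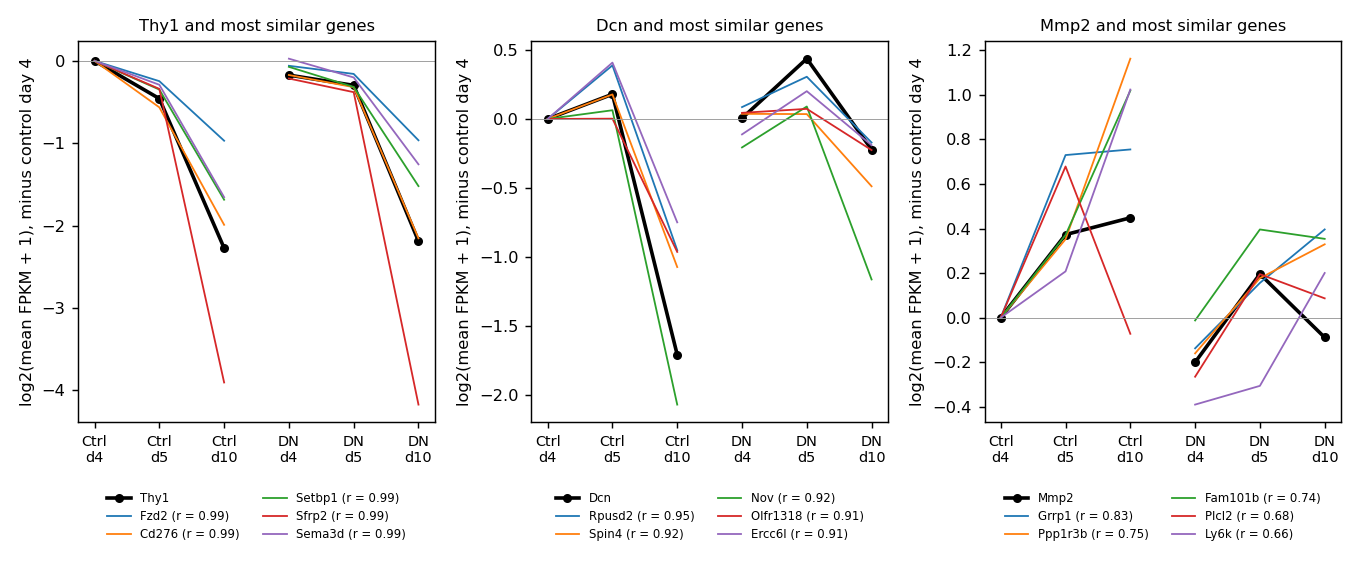
Log2 of the mean FPKM + 1 minus that of the control cells of day 4 (y axis) by vector and day (x axis) for Thy1, Dcn and Mmp2 (black) and the 5 genes most like each (colours, with Pearson's r). The Thy1 curves go down with either vector, the Dcn curves go down further in control cells than with Cdk9-DN for each of the 5 genes, as choosing by r on these libraries favours, and the Mmp2 curves differ among themselves (r of 0.66 to 0.83).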

How the data were processed

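RNA of 14 libraries was sequenced. The authors deposited FPKM per gene with a lower and an upper bound, 1 table per library. Per the submitters' processing notes, CASAVA 1.8.2, TopHat2 2.0.10 and Cufflinks 2.2.1 were used, with the builds mm9 and NCBIM37; the roles and settings of these tools are not given in the sources used here. Exon numbers and transcript lengths came from GENCODE M21, matched by identifier, and coordinates from the deposited tables.

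Values of 16 genes with several entries were summed and 1 failed entry was left out. The bounds lie 2 standard deviations around the FPKM, which gave the implied fragments, on the assumption that they cover counting error alone, and from protein-coding genes the depth. The 12 libraries of days 4, 5 and 10 were fitted as 6 groups on the scale log2(FPKM + 1) with limma 3.58.1 in R 4.3.3, the variance prior following the mean level. A library without a gene was dropped from that gene's fit, which needed 2 or more residual degrees of freedom. Where a group had only 1 library that lists the gene, its spread was taken from the other groups. Shares of genes whose groups did not overlap count all genes tested, with 1 or 2 libraries per group. A group of 1 library overlaps with another less readily. Of 7460 genes that passed the filter, 3491 were listed in all 12 libraries. Tests are two-sided, with Benjamini-Hochberg adjustment over all genes of a comparison. Fold values are ratios of mean FPKM without the pseudocount of 1.

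The genes and the gene lists were chosen with earlier results of these data known. Named were the 3 genes, tested genes of the lists and, for each of the 3, the 5 genes with the highest Pearson correlation that passed the filter, were listed in all its libraries, ranged over at least 1 log2 unit and had a gene name. Alternatives were other pseudocounts, scalings, filters and variance models, a replicate block, adding day 3, separate fits and leaving out each library. The fit was tested on simulated data. Python 3.11.15 with pandas 2.3.3 read the tables.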

Additional observations from a re-analysis of the deposited data

Results flagged for a closer look

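The Cdk9-DN effect on Dcn differed between days by the test of the difference itself: the day 10 effect exceeded the day 4 effect by 1.48 on the log2 scale (SE 0.163, limma adjusted p = 0.00179), from 0.01 at day 4 to 1.49 at day 10. Both Cdk9-DN libraries of day 10 were above both control libraries. The 2 vectors did not overlap at day 10, in either direction, for 67.8% of the genes tested, some of them with 1 library in a group. The change in effect was 1.39 to 1.58 when single libraries were left out, and 15.7% of the genes tested were called for it. No cause was tested.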

How the results depend on the processing

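Of 362 alternative values of the vector effects, the day 4 to day 10 courses and the change in effect for Thy1, Dcn and Mmp2, 356 kept their direction and their side of the threshold. Leaving out a library outside a comparison does not move its difference, only its spread. Without the only library of a group that lists the gene there is no value. The Mmp2 difference in control cells from day 4 to day 10 was therefore 0.45 in every such fit. The Mmp2 effect at day 10 was never fitted without its only control library. The day 10 effect on Dcn was 1.39 to 1.59 without single libraries and 1.01 to 1.68 otherwise (highest adjusted p 0.0273), and that on Mmp2 -0.57 to -0.50 and -0.55 to -0.38 (highest 0.0441). Median-of-ratios scaling gave Dcn a called fall with Cdk9-DN from day 4 to day 10 (-0.41). For Mmp2 it turned that course to -0.0788 and the control step from day 5 to day 10 to -0.0366. Quantile normalization turned these to -0.0110 and -0.130 and ended the Mmp2 call in control cells from day 4 to day 10 (0.16). Without single libraries the Dcn effect at day 4 ranged from -0.0345 to 0.0446. The cause was not tested. These scalings moved the median of all genes for Cdk9-DN from day 4 to day 10 from 0.11 to -0.03 or -0.04, and in control cells from 0.07 to -0.01 or -0.07. The calls, 1423 higher and 785 lower with Cdk9-DN, became 990 and 1169 after median-of-ratios scaling and 898 and 1087 after quantile normalization, and in control cells 1639 and 1268 became 1204 and 1606 after the latter.

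The steps between days gave 248 values, of which 230 were the same. The fall of Thy1 in control cells from day 4 to day 5 was lost in a separate fit per vector (adjusted p = 0.0952), and that of Mmp2 with Cdk9-DN from day 5 to day 10 had adjusted p of 0.0193 to 0.138.

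Numbers of called genes moved with the setting. The day 10 effect, 1658, was 768 over genes listed in all 12 libraries, 456 in a separate fit, and 930, 938 and 980 without control replicate 1, Cdk9-DN replicate 1 and Cdk9-DN replicate 2 of that day. The day 4 effect, 2, ranged from 1 to 18 (388 at an unadjusted p under 0.05), and the day 5 effect, 10, from 3 to 24 (500). The change in effect, 869, was 396 over genes listed in all 12 and as low as 508 without 1 library. From day 4 to day 5, 299 genes in control cells and 194 with Cdk9-DN each became 37 without the first replicate of day 4 of that vector. The split of that step, 109 higher and 190 lower in control cells, was 65 and 232 after quantile normalization, and with Cdk9-DN 79 and 115 became 44 and 186. From day 5 to day 10 with Cdk9-DN, 1304 and 715 became 970 and 1006 after median-of-ratios scaling and 1005 and 846 after quantile normalization.

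Replicate numbers did not pair the libraries: deviations of same-numbered libraries correlated at -0.162 to 0.103 over 3491 genes. With the replicate block the day 10 effect was -0.54 for Mmp2 (adjusted p = 0.0330), the Mmp2 step with Cdk9-DN from day 5 to day 10 was lost (-0.28, adjusted p = 0.106), and 155 in place of 299 genes were called in control cells from day 4 to day 5. Dcn at day 10 rested on 69.3 fragments in its shallowest library. Thy1 and Mmp2 have no value over genes listed in all 12 libraries, and could not be fitted at day 10 alone.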
